A study of Mus musculus with 8 samples.

Results

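WNT proteins are secreted signals that pattern the embryonic nervous system, and 43 genes of their pathway were followed here among the 36317 genes of an RNA-seq table of mouse embryonic forebrain and spinal cord. The 43 genes were taken by name and role: 19 WNT ligands, 3 R-spondins, 10 Frizzled receptors, the co-receptors Lrp5 and Lrp6, 7 secreted antagonists of the DKK and SFRP families, and the target genes Axin2 and Lef1. The study examined conditional loss of EED, a core subunit of the Polycomb repressive complex that methylates histone H3, which here depended on Cre recombinase expressed from Sox1, a gene of neural progenitors. The design therefore removes EED in cells descended from the neuroepithelium, while endothelial cells and microglia lie outside that lineage. Whether cells of the meninges or pericytes lost EED was not tested. Both measured regions were dissected whole as tissue, and the RNA was sequenced in bulk.

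The 8 libraries fell into 4 groups of 2, all from pregnant females under standard housing: wild-type (wt) forebrain at embryonic day (E) 13.5, wt spinal cord at E13.5, wt forebrain at E15.5, and EED-cKO forebrain at E15.5. The labels do not give a strain, name the alleles carried by the wt embryos, or say whether a library came from 1 embryo or a pool. The p-values below therefore measure only the spread between these libraries, which may be technical. The comparisons that the groups allow are EED-cKO against wt forebrain at E15.5, which asks what loss of EED does to the pathway, and wt spinal cord against wt forebrain at E13.5, which shows how the pathway differs along the body axis. EED-cKO spinal cord was not analysed here.

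WNT ligands are lipid-modified, and bind a Frizzled receptor together with an LRP5 or LRP6 co-receptor at the cell surface. In the canonical branch this stabilises β-catenin, which activates target genes with TCF and LEF factors. R-spondins raise the number of Frizzled receptors at the surface, DKK proteins act on the co-receptors, and SFRP proteins bind the ligands. In the forebrain the cortical hem, a strip at the edge of the cortex beside the choroid plexus, is a known source of several WNT ligands, while the roof plate is a source in the spinal cord. Polycomb complexes are known to occupy CpG-rich start regions of developmental genes in many tissues.

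Levels are RPKM, reads scaled to transcript length and to the mapped reads of the library, deposited to the nearest 0.1. The sum of all RPKM ran from 378294 to 397320 per library at E13.5 and from 761647 to 843296 at E15.5, so levels were compared within an age and not between ages. The file holds no counts, so the depth behind a value is unknown beyond an approximate read number in the labels. Differences are on the log2(RPKM + 1) scale, which understates the change of weakly expressed genes. A gene was tested where at least 2 of the 8 libraries reached 1 RPKM, and called where the Benjamini-Hochberg adjusted p from limma, taken over all 17022 tested genes, was under 0.05. Of the 43 WNT genes, 36 were tested, and Wnt1 entered through the spinal cord libraries alone. An exact permutation test of 2 libraries against 2 cannot give a two-sided p below 0.333.

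In the deposited table the E15.5 values stood against gene names in another order than the E13.5 values. Matching the E15.5 columns to the same names sorted alphabetically, with case and hyphens ignored, raised the correlation across genes between E13.5 and E15.5 in wt forebrain from 0.760 to 0.948. This is a description across genes, which are not independent replicates, and it stood at 0.554 and 0.891 over the 43 WNT genes. Every E15.5 value below uses the restored order. The restoration left 14 of the 43 genes in their deposited row and moved 29, including every ligand other than Wnt1. As deposited, Wnt7b would read 10.6 and 7.8 RPKM in wt and 19.7 and 20.1 RPKM in EED-cKO, and the values 69 and 77.6 RPKM of wt forebrain would stand against Wnt9b, which was at 0.1 RPKM in both E13.5 forebrain libraries. The restored order is inferred from the names and was not stated in the sources used here, and the E15.5 value of each moved gene rests on it. The values of Eed and of the 14 unmoved genes do not.

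Eed was lower in the libraries labelled EED-cKO, at 10 and 10.6 RPKM against 25.8 and 27.9 RPKM in wt (log2 difference −1.30 ± 0.085 SE, limma adjusted p = 8.7e-05). Beyond the WNT genes, marker lists of tissues also moved between these groups, and their part in the results was not tested. In EED-cKO forebrain 6 of 8 forebrain markers were called lower and 1 higher, with summed levels of 228 and 196 RPKM against 592 and 586 RPKM in wt. All 8 Hox genes of the spinal cord list were called higher, summing to 76.7 and 69.9 RPKM, and all 8 were at 0 in both wt libraries. All 8 markers of the cortical hem and choroid plexus were called higher (5847 and 4579 against 2141 and 2298 RPKM), as were all 10 of meninges and mesenchyme (760 and 930 against 256 and 196 RPKM), 8 of 8 of endothelium, 5 of 6 of pericytes and 4 of 5 tested of microglia. Of the surface epithelium list 3 of 3 tested, Krt8, Krt18 and Epcam, were called higher (list sums of 30 and 45 against 7.4 and 7.8 RPKM). Epcam measured 7.9 and 21.3 RPKM in EED-cKO. Krt5, Krt14 and Trp63 of the same list were not tested and lay at or under 0.6 RPKM in every library. Skeletal muscle markers summed to 93 RPKM in EED-cKO replicate 2 against 4.7 to 6.7 RPKM in the other E15.5 libraries. The globin gene Hbb-bt, which inbred mouse strains carry or lack, stood at 395.4 and 547.4 RPKM in wt and 5.9 and 8.1 RPKM in EED-cKO, so a difference in strain background cannot be told apart from the genotype. In bulk tissue, fewer cells of a type and less RNA per cell cannot be told apart.

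The set of WNT genes differed in make-up between EED-cKO and wt forebrain. Of the 36 WNT genes tested, 18 (50%) were called higher and 5 (13.9%) lower in EED-cKO forebrain, against a background of 30.2% of all tested genes called higher and 16.7% called lower (46.9% in either direction). The share called lower was thus close to the background and the share called higher was above it, with a median log2 difference of 0.47 over the 36 genes and 0.08 over all 17022 tested genes. The groups did not overlap for 32 of the 36 genes and for 11960 of the 17022 tested genes, which is a smaller share. Without EED-cKO replicate 2, the library with muscle transcripts, 16 were called higher and 3 lower. Scaling each library by its median ratio lowered the median of all tested genes from 0.08 to −0.04 and the share of all calls that were higher from 64.5% to 45.4%, while the WNT genes then split into 18 called higher and 6 lower with a median of 0.34.

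Wnt7b and Wnt7a, close paralogues that act in cortical neurogenesis and in the growth of brain vessels, were the most abundant ligands of wt forebrain and the only ligands called lower. Wnt7b measured 69 and 77.6 RPKM in wt forebrain at E15.5 and 21.5 and 16.6 RPKM in EED-cKO. Wnt7a measured 25.1 and 26.6 RPKM in wt and 10.4 and 11.3 RPKM in EED-cKO. For both genes each EED-cKO library lay below each wt library. Wnt7b fell by 1.90 on the log2 scale (SE 0.12, limma adjusted p = 7.4e-05, 3.85-fold lower) and Wnt7a fell by 1.18 (SE 0.088, limma adjusted p = 1.3e-04, 2.38-fold lower). Forebrain markers were lower in the same libraries, as given above.

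Of the 13 ligands tested, 8 (61.5%) rose, with values in every EED-cKO library above every wt library, and 2 (15.4%) fell. Over all tested genes 30.2% were called higher and 16.7% lower, so the share of ligands called lower was near the background. Wnt5a, a ligand best known for the β-catenin-independent branch, went from 10.6 and 7.8 RPKM in wt to 19.7 and 20.1 RPKM. Wnt4, a ligand of both branches, went from 7.6 and 7.3 to 16.5 and 15.6 RPKM. In EED-cKO forebrain the level of Wnt5a thus lay within the range of Wnt7b, the leading ligand of wt. Wnt5a rose by 1.05 ± 0.14 (SE, limma adjusted p = 0.00128) and Wnt4 rose by 1.01 ± 0.11 (SE, limma adjusted p = 6.0e-04), each a little over 2-fold (2.16 and 2.15). Wnt3, a canonical ligand, went from 6.2 and 5.1 to 9.3 and 9.6 RPKM, a smaller rise of 0.66 ± 0.1 (SE, limma adjusted p = 0.00212).

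Wnt2b, which marks the cortical hem, and Wnt8b, which marks the hem and the adjoining medial wall, both rose. Wnt2b measured 2.4 and 1.8 RPKM in wt and 5.8 and 6.8 RPKM in EED-cKO (log2 difference 1.24 ± 0.15 SE, limma adjusted p = 7.1e-04). Wnt8b measured 1.8 and 2 RPKM in wt and 4.3 and 3.5 RPKM in EED-cKO (0.75 ± 0.13 SE, limma adjusted p = 0.00308), a call that ended under quantile normalization (0.35, adjusted p = 0.0697). Wnt3a, the ligand most closely tied to the hem, was not called: it stood at 0.5 and 0.6 RPKM in wt and 0.5 and 1 RPKM in EED-cKO (0.16, limma adjusted p = 0.379), and was called higher without EED-cKO replicate 1 (0.37, limma adjusted p = 0.0376). The hem and choroid plexus markers that were higher in these libraries include Ttr, the main transcript of choroid plexus, at 5652.1 and 4411.6 RPKM against 2072.2 and 2232.5 RPKM. Ttr made up most of the summed level of that list in forebrain, so the sum says little about the hem.

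The remaining ligands that rose were weak in wt forebrain. Wnt11, a ligand of the β-catenin-independent branch, had the largest difference of any WNT gene that rose, from 0.8 and 1 RPKM to 4.6 and 4.2 RPKM (1.51 ± 0.18 SE, limma adjusted p = 7.6e-04, 4.89-fold). Wnt9a went from 2.2 and 1.7 to 6.4 and 6.6 RPKM (1.35 ± 0.13 SE, limma adjusted p = 3.7e-04). Wnt6 went from 3.9 and 4.1 to 9.8 and 8.7 RPKM (1.03 ± 0.16 SE, limma adjusted p = 0.00194). Markers of meninges and mesenchyme, tissues in which WNT ligands are also made, were higher in the same EED-cKO libraries. So were Krt8, Krt18 and Epcam, the only genes tested of the surface epithelium list, while Krt5, Krt14 and Trp63 stayed at or under 0.6 RPKM. Whether any of these tissues contributed to the ligand levels was not tested. Wnt10b and Wnt16 were under the level for testing, yet lay at 0.7 and 1.1 RPKM and at 0.9 and 0.8 RPKM in EED-cKO against 0.1 in both and 0.3 in both wt libraries. Wnt1 and Wnt5b did not pass the test (limma adjusted p = 0.144 and 0.27), and Wnt2, Wnt8a, Wnt9b and Wnt10a reached no more than 0.6 RPKM in any library.

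**Figure D1:**
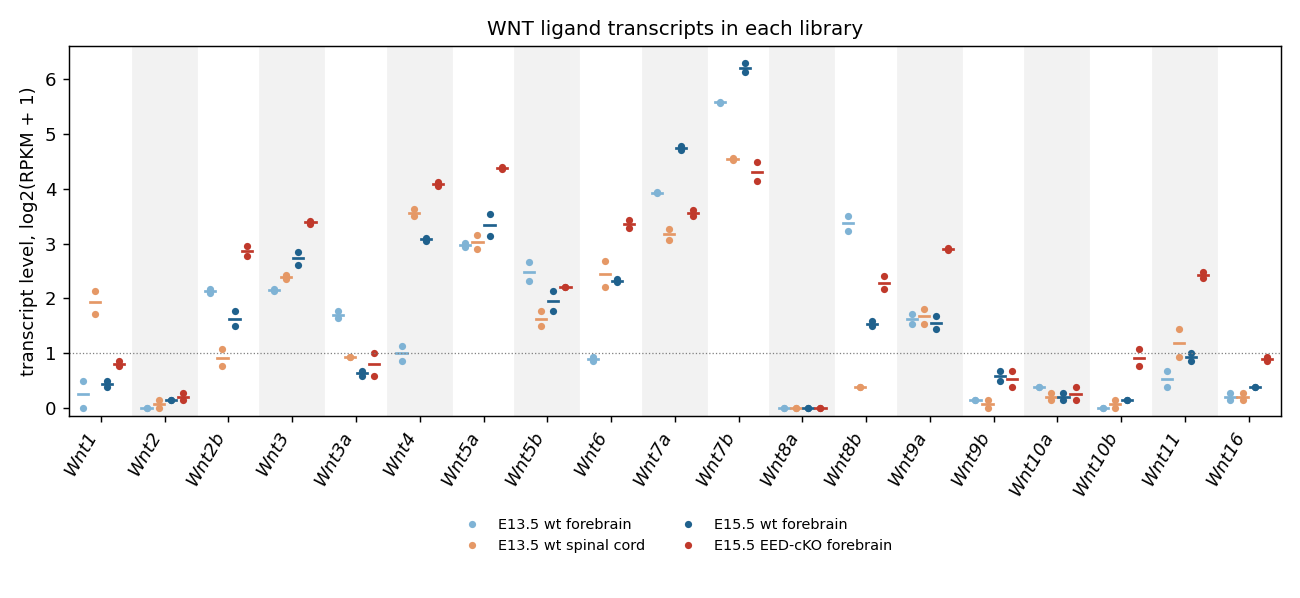
Level of each of the 19 WNT ligands (horizontal axis) as log2(RPKM + 1) (vertical axis), with a point for each of the 8 libraries coloured by group, a short bar at each group mean and a dotted line at 1 RPKM. At E15.5 the EED-cKO points for Wnt7a and Wnt7b lie below the wt points, and those for Wnt2b, Wnt3, Wnt4, Wnt5a, Wnt6, Wnt8b, Wnt9a and Wnt11 lie above them.

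Expressed as a share of all ligand RPKM in a library, the Wnt7 pair took a smaller part in EED-cKO. Wnt7a and Wnt7b together made up 70.2% and 74.2% of ligand RPKM in wt forebrain at E15.5 and 27.7% and 25.1% in EED-cKO. Wnt5a went from a mean of 6.73% to 17.6% and Wnt4 from 5.43% to 14.2%. The total of the 19 ligands was lower, at 115 and 111 RPKM against 134 and 140 RPKM in wt. The number of ligands with a group mean of at least 1 RPKM was 10 in wt and 11 in EED-cKO. These shares restate the levels above and carry no test of their own.

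**Figure D2:**
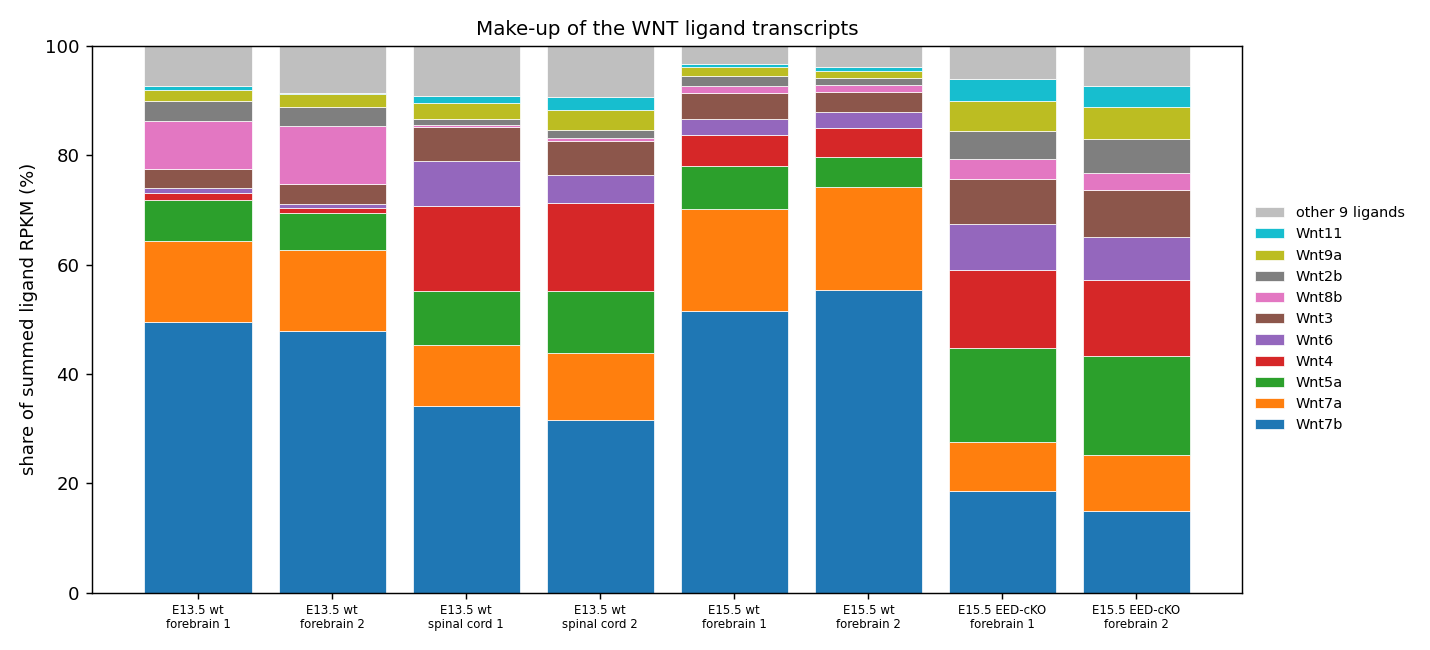
Stacked bars of each library's summed ligand RPKM (vertical axis, percent), with the 10 ligands named in the key and the other 9 in grey. Wnt7b and Wnt7a fill 70.2% and 74.2% of the 2 wt bars at E15.5 and 27.7% and 25.1% of the EED-cKO bars. At E13.5 they fill 64.3% and 62.6% of the forebrain bars and 45.3% and 43.7% of the spinal cord bars.

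Start regions of ligand, antagonist and target genes that rose are shown for 4 genes, because Polycomb complexes are known to bind CpG-rich starts, and were picked to span a wide range of CpG content among genes that rose. Each stretch covers 200 bases on the + strand, from 250 to 51 bases before an annotated start, taken from RefSeq (GRCm38.p6), and CG dinucleotides are in capitals. None overlaps an annotated exon, and the Axin2 stretch lies inside the gene ahead of one of its starts. Wnt11 is at chr7:98834862-98835061, Axin2 at chr11:108920099-108920298, Dkk2 at chr3:132085042-132085241 and Wnt8b at chr19:44493222-44493421.
Wnt11: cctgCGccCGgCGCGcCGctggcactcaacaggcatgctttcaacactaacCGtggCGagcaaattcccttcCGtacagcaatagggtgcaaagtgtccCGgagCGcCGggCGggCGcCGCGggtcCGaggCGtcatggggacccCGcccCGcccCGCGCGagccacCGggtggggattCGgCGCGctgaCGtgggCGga
Axin2: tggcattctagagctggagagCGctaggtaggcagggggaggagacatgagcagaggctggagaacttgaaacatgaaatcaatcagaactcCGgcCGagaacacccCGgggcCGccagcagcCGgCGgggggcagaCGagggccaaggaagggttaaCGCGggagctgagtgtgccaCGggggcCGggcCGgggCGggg
Dkk2: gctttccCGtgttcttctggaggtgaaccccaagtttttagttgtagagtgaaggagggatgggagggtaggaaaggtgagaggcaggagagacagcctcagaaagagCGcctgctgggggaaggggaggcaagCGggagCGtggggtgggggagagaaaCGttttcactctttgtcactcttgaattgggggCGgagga
Wnt8b: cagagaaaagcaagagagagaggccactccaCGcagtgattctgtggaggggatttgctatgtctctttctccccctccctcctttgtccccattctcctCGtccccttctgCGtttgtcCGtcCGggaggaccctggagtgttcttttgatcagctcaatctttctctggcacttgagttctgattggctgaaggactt

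Among 15675 such stretches of 12228 tested genes, 5.21% held at least as many CG dinucleotides as the 28 of Wnt11 and 35.1% as many as the 14 of Axin2. The 6 of Dkk2 and the 5 of Wnt8b lay under the median of 10, as 69.5% and 74.6% of stretches held at least as many. A second annotated start of Wnt11, at chr7:98838595-98838794, had 11, and 47.2% of stretches held at least as many. Since the 4 were chosen for this range, it shows nothing about genes that rose in general, and no binding or methylation was measured. The TCF motifs CTTTGAT and CTTTGTT, searched on both strands, had no match in the 4 stretches and a match in 4.98% of all stretches. A start window was held for 28 of the 43 WNT genes, too few for a comparison of the whole set.

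Among the 10 Frizzled receptors, all tested, 5 (50%) rose and 2 (20%) fell in EED-cKO forebrain, with a median log2 difference of 0.42. The background over all tested genes was 30.2% called higher and 16.7% lower, so the share called lower was near it. Fzd10, a receptor of dorsal neural tissue, went from 6.6 and 4.8 RPKM in wt to 13.4 and 15.2 RPKM in EED-cKO (1.20 ± 0.14 SE, limma adjusted p = 6.5e-04, 2.51-fold). Fzd5, known from eye and ventral forebrain, went from 1.3 and 1.1 to 3.4 and 3 RPKM (0.93 ± 0.11 SE, limma adjusted p = 6.8e-04). Eye markers, 3 of 3 tested of which were called higher, summed to 31 and 28.1 RPKM in these libraries against 3.7 and 4.2 RPKM in wt. About 17.8% of Fzd5 exon sequence is shared with another annotated gene, from which unstranded reads cannot be told apart.

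Fzd4, the receptor for Norrin as well as WNT ligands in vessels, went from 2.1 and 2 to 3.9 and 4.2 RPKM (0.73 ± 0.09 SE, limma adjusted p = 8.8e-04), beside endothelial markers that summed to 277 and 286 RPKM against 197 and 189 RPKM. Fzd1 went from 23.2 and 20.8 to 33.3 and 33.1 RPKM (0.57 ± 0.084 SE, limma adjusted p = 0.00169), which made it the most abundant Frizzled of EED-cKO forebrain. Fzd6, a receptor of planar cell polarity, went from 7.6 and 6.3 to 13 and 13.6 RPKM (0.85 ± 0.18 SE, limma adjusted p = 0.00708). The call of Fzd6 ended without wt replicate 2 (limma adjusted p = 0.0538) or without EED-cKO replicate 2 (0.0612), although the 4 libraries did not overlap.

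Fzd8, a receptor of forebrain progenitors, was the Frizzled with the clearest fall, from 11.9 and 10.9 RPKM to 6 and 6.6 RPKM (−0.76 ± 0.095 SE, limma adjusted p = 8.8e-04, 1.81-fold lower). Fzd2 moved little, from 25.1 and 25.2 to 22.9 and 21 RPKM (−0.19 ± 0.063 SE, limma adjusted p = 0.0425). The Fzd2 call ended without any 1 of 6 libraries, with adjusted p from 0.063 to 0.185, the last without EED-cKO replicate 2. Fzd3, Fzd7 and Fzd9 were not called (limma adjusted p = 0.134, 0.348 and 0.0884). As a result, Fzd1 went from a mean of 21.2% to 25.4% of summed Frizzled RPKM, Fzd10 from 5.46% to 10.9% and Fzd8 from 11% to 4.81%. The co-receptors Lrp5 and Lrp6 were not called, with log2 differences of 0.19 and 0.36 (limma adjusted p = 0.18 and 0.0737). Without wt replicate 1, Lrp6 (0.59, limma adjusted p = 0.00354) and Fzd3 (0.41, 0.0477) were called higher, and without wt replicate 2, Fzd9 was (0.29, 0.0359).

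Of the 6 antagonists tested, 3 (50%) rose and 1 (16.7%) fell in EED-cKO forebrain, against 30.2% and 16.7% of all tested genes. Dkk2, which acts on LRP co-receptors, went from 1.7 and 1.5 RPKM in wt to 3.7 and 6 RPKM in EED-cKO (1.14 ± 0.18 SE, limma adjusted p = 0.00214, 3.03-fold), the EED-cKO libraries lying apart from each other and above both wt libraries. Dkk3, a divergent DKK family member, went from 23.5 and 22.2 to 41.3 and 41.3 RPKM (0.83 ± 0.064 SE, limma adjusted p = 1.6e-04). Sfrp4 went from 1.1 and 1.3 to 4.1 and 3.3 RPKM (1.09 ± 0.11 SE, limma adjusted p = 4.1e-04). These 3 genes stood in the same row in both orders of the table, so their values do not rest on the restored order.

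Sfrp1 and Sfrp2, the most abundant SFRP genes of forebrain, were not called: Sfrp1 was at 38 and 30.2 RPKM in wt and 32.6 and 32.8 RPKM in EED-cKO, within the spread of wt, and Sfrp2 was at 25.4 and 23.6 and at 28.2 and 27.5 RPKM (limma adjusted p = 0.722 and 0.225). Sfrp1 was called lower without wt replicate 2 (−0.21, limma adjusted p = 0.0153). Sfrp5 was called lower, from 1.8 and 2.5 to 1.3 and 0.7 RPKM (−0.66 ± 0.22 SE, limma adjusted p = 0.0461). That call ended without any 1 of the 6 forebrain libraries, with adjusted p from 0.058 to 0.262, the last without EED-cKO replicate 2. Dkk1 was at or under 0.5 RPKM in every library and was not tested.

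Among the R-spondins, Rspo1 went from 2.4 and 1.7 RPKM to 4.3 and 4.4 RPKM (0.82 ± 0.18 SE, limma adjusted p = 0.00885), a rise whose call ended under quantile normalization and without wt replicate 2 or either EED-cKO replicate (limma adjusted p from 0.0558 to 0.0768). Rspo2 measured 5.1 and 4.6 RPKM in wt and 5.6 and 5.3 RPKM in EED-cKO, and Rspo3 measured 11.7 and 14.2 RPKM in wt and 10.5 and 10.8 RPKM in EED-cKO. Neither was called (limma adjusted p = 0.392 and 0.0841). Rspo3 was called lower under median ratio scaling (−0.39, limma adjusted p = 0.0222), under quantile normalization (−0.45, 0.0186) and without wt replicate 1 (−0.38, 0.0127).

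Axin2, a negative regulator that canonical WNT signalling induces and that is widely read as its reporter, rose from 16.9 and 13.3 RPKM to 32.2 and 31.8 RPKM (1.04 ± 0.12 SE, limma adjusted p = 6.1e-04, 2.12-fold). Both EED-cKO libraries lay far above both wt libraries, and Axin2 was not among the moved genes. Lef1, a nuclear partner of β-catenin, stood at 11.9 and 9.1 RPKM in wt and 12.6 and 14.3 RPKM in EED-cKO and was not called (0.34 ± 0.15 SE, limma adjusted p = 0.0973), but was called higher without wt replicate 1 (0.51, limma adjusted p = 0.0315).

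**Figure D3:**
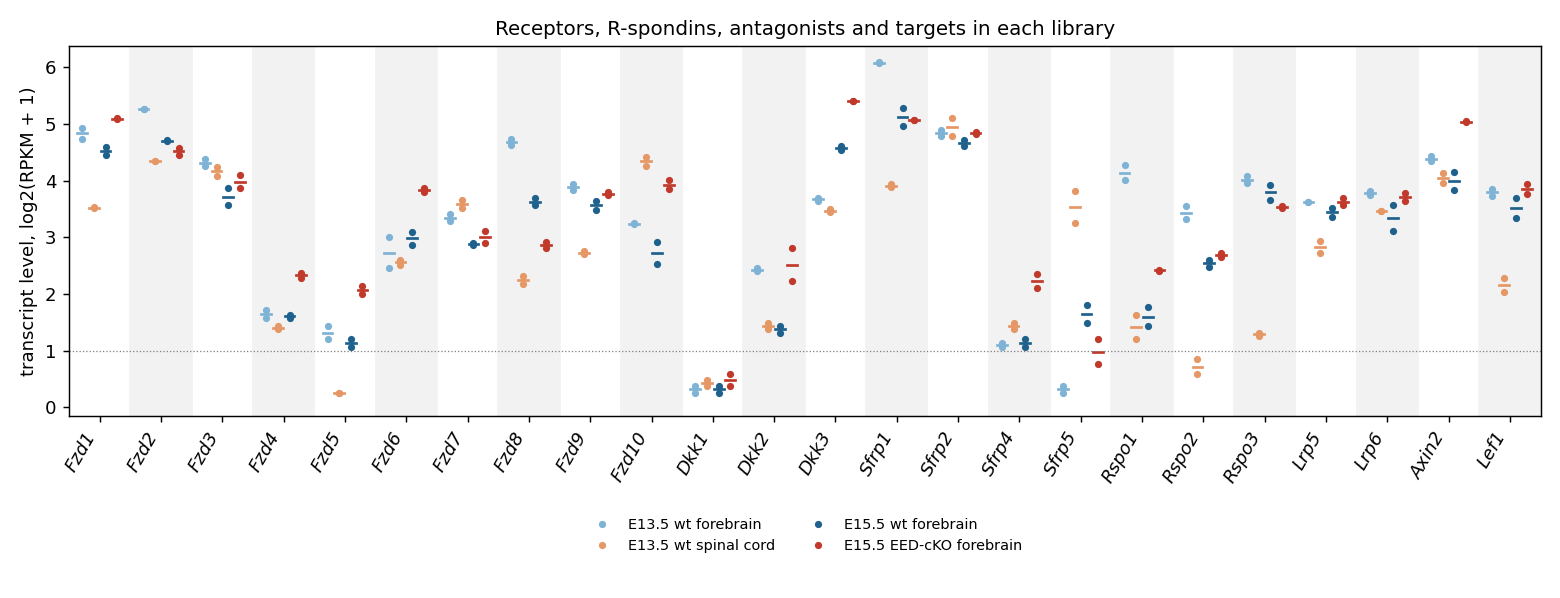
Level of each receptor, co-receptor, antagonist, R-spondin and target gene (horizontal axis) as log2(RPKM + 1) (vertical axis), with a point for each of the 8 libraries coloured by group, a short bar at each group mean and a dotted line at 1 RPKM. Axin2, Dkk3 and Fzd10 lie above wt in EED-cKO forebrain, Fzd8 lies below it, and the 3 R-spondins lie far lower in spinal cord than in forebrain at E13.5.

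The rest of the pathway was read from a list of 63 further genes, of which 59 were tested, with 32 called higher and 9 lower and a median log2 difference of 0.45. Over all tested genes 30.2% were called higher and 16.7% lower, so the share of the list called lower was near the background. Of 12 genes of ligand secretion and extracellular control, 9 rose and 1 fell. Wls, the carrier that brings WNT ligands to the cell surface, went from 24.5 and 21.4 RPKM in wt to 80.7 and 88.6 RPKM (1.84, limma adjusted p = 2.3e-05). Sostdc1, a secreted antagonist, went from 10.3 and 8.3 to 37.1 and 30 RPKM (1.75, limma adjusted p = 2.7e-04), and Dkkl1, a DKK-related gene, from 2.1 and 2 to 12.9 and 13.1 RPKM (2.20, limma adjusted p = 4.4e-05). Of 11 receptor and turnover genes 10 rose and 1 fell. They included Lgr4, a receptor for R-spondins, and Adgra2, which cooperates with Wnt7a and Wnt7b in brain vessels (both 1.11, limma adjusted p = 5.9e-04 and 6.9e-04).

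Of 12 cytoplasmic genes of the pathway, none was called higher and 5 were called lower, with a median of −0.09. Over all tested genes 30.2% were called higher and 16.7% lower. The 5 falls were small, from −0.17 to −0.37 on the log2 scale. How calls of these further pathway genes depend on scaling or on single libraries was not examined. Ctnnb1, which encodes β-catenin, went from 434 and 415.4 RPKM to 353.6 and 365.5 RPKM (−0.24, limma adjusted p = 0.0208), and Axin1, a scaffold of the complex that degrades it, from 29.7 and 31.4 to 22.5 and 24.5 RPKM (−0.37, limma adjusted p = 0.0043). Dvl2, which relays the signal from Frizzled receptors, fell by 0.28 (limma adjusted p = 0.0173). Of 14 nuclear and target genes 9 rose and 1, Myc, fell by 0.33. Ccnd1, a cell cycle gene counted among WNT targets, went from 30.7 and 28.6 to 124.7 and 127.9 RPKM. Tcf7l2, a nuclear factor strong in thalamus, varied within both groups, at 65.1 and 26.4 RPKM in wt and 25.1 and 48.8 RPKM in EED-cKO, and was not called (−0.24, limma adjusted p = 0.71). Of 10 planar polarity genes, 4 rose and 1 fell, with the largest rises in Vangl1 (1.10, limma adjusted p = 9.7e-04) and Prickle2 (0.73, 0.0133).

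Wild-type spinal cord at E13.5 held lower levels of many forebrain WNT components, though not evenly across roles. Of the 36 WNT genes tested, 7 (19.4%) were called higher and 19 (52.8%) lower than in forebrain, against backgrounds of 21.8% higher and 23.9% lower (45.7% in either direction). The share called higher was thus near the background and the share called lower was above it. The median log2 difference was −0.55 over the WNT genes and 0.00 over all tested genes. The groups did not overlap for 32 of the 36 genes and for 12990 of the 17022 tested genes, which is a smaller share. By role, the median was −2.72 for R-spondins, −0.58 for Frizzled receptors, −0.56 for co-receptors and −0.99 for targets. It was near 0 for ligands (0.04, with 4 called higher and 6 lower) and secreted antagonists (−0.05). Marker lists separated the regions: all 8 Hox genes were called higher in spinal cord and all 8 forebrain markers lower. Markers of neural crest and dorsal root ganglion summed to 383 and 275 RPKM in spinal cord and 11.4 and 10.3 RPKM in forebrain.

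Spinal cord ligands differed in kind. Wnt4, which the ventral and dorsal cord is known to express, measured 10.3 and 11.4 RPKM against 1.2 and 0.8 RPKM in forebrain (2.57 ± 0.11 SE, limma adjusted p = 8.6e-06, 10.9-fold). Wnt1, a roof plate ligand, measured 2.3 and 3.4 RPKM against 0.4 and 0 RPKM (log2 difference 1.69). Wnt1 entered the test only through these spinal cord libraries, the group in which it is high, so its place among the 7 called higher followed in part from the filter. Wnt6 measured 5.4 and 3.6 RPKM against 0.9 and 0.8 RPKM (1.55 ± 0.16 SE, limma adjusted p = 2.6e-04). Wnt11 was called higher at 0.9 and 1.7 against 0.6 and 0.3 RPKM (0.65 ± 0.18 SE, limma adjusted p = 0.0227), but the call ended with forebrain replicate 2 (0.50, adjusted p = 0.143) or spinal cord replicate 2 (0.40, adjusted p = 0.11) left out, and without either EED-cKO library (adjusted p = 0.0512 and 0.0513), which enter only through the shared spread.

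Wnt8b showed the widest gap among the ligands, at 8.4 and 10.4 RPKM against 0.3 in both spinal cord libraries (−2.99 ± 0.13 SE, limma adjusted p = 7.4e-06, 31.3-fold lower). The hem ligands Wnt2b and Wnt3a were lower in spinal cord by 1.22 and 0.77 on the log2 scale. Hem and choroid plexus markers summed to 2.8 and 2.4 RPKM there against 239 and 244 RPKM in forebrain. The choroid plexus transcript Ttr alone held 191.6 and 194.1 RPKM of the forebrain sums, so they say little about the hem. Wnt7b, at 22.5 and 22.1 against 47.2 and 46.7 RPKM, and Wnt7a, at 7.4 and 8.6 against 14.1 and 14.3 RPKM, were 2.11-fold and 1.77-fold lower (limma adjusted p = 4.2e-04 and 4.9e-04), and Wnt5b was 2.21-fold lower. Wnt3, Wnt5a and Wnt9a were not called (limma adjusted p = 0.0966, 0.822 and 0.838). The Wnt7 pair was nevertheless the largest part of ligand RPKM in both regions, at 64.3% and 62.6% in forebrain and 45.3% and 43.7% in spinal cord.

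All 3 R-spondins were far lower in spinal cord. Rspo1 measured 15.1 and 18.3 RPKM in forebrain and 1.3 and 2.1 RPKM in spinal cord. Rspo2 measured 9 and 10.7 against 0.8 and 0.5 RPKM, and Rspo3 measured 14.6 and 15.9 against 1.4 and 1.5 RPKM. No spinal cord library reached 3 RPKM for any of them. The log2 differences were −2.72 ± 0.18 for Rspo1, −2.72 ± 0.13 for Rspo2 and −2.73 ± 0.1 for Rspo3 (SE, limma adjusted p = 3.8e-05, 1.0e-05 and 4.7e-06), and as ratios of RPKM the genes were 9.82-fold, 15.2-fold and 10.5-fold lower. Summed R-spondin RPKM was 3.5 and 4.1 in spinal cord against 38.7 and 44.9 in forebrain.

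Frizzled receptors also differed by region. Fzd8 was at 4 and 3.5 RPKM in spinal cord against 23.7 and 25.7 RPKM in forebrain (−2.44 ± 0.095 SE, limma adjusted p = 5.1e-06). Fzd1, Fzd2, Fzd5 and Fzd9 were lower by 1.31, 0.92, 1.05 and 1.16 on the log2 scale. Fzd10 was the only Frizzled called higher, at 18.1 and 20.5 RPKM against 8.5 and 8.4 RPKM (1.10 ± 0.14 SE, limma adjusted p = 7.1e-04), and made up a mean of 20.7% of Frizzled RPKM in spinal cord and 5.65% in forebrain. Fzd3, Fzd4, Fzd6 and Fzd7 were not called, with differences from −0.25 to 0.23. Lrp5 was 1.85-fold lower in spinal cord (limma adjusted p = 8.4e-04) and Lrp6 was not called (limma adjusted p = 0.108).

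The SFRP genes differed in opposite directions between the regions. Sfrp1, which was the most abundant antagonist of forebrain, measured 66.2 and 67 RPKM there and 14.3 and 13.8 RPKM in spinal cord (−2.17 ± 0.1 SE, limma adjusted p = 1.1e-05). Sfrp5 measured 0.2 and 0.3 RPKM in forebrain and 13.2 and 8.6 RPKM in spinal cord (3.22 ± 0.22 SE, limma adjusted p = 4.9e-05), the largest log2 difference among the WNT genes called higher in this pair. Sfrp2 was at 28.9 and 26.5 RPKM in forebrain and 33.5 and 26.5 RPKM in spinal cord, so the groups overlapped (limma adjusted p = 0.492). Dkk2 was 2.59-fold lower in spinal cord (limma adjusted p = 0.00343). Calls for Dkk3 (lower, −0.20, limma adjusted p = 0.0389) and Sfrp4 (higher, 0.33, limma adjusted p = 0.0474) ended without any 1 of the 4 E13.5 libraries, with adjusted p from 0.0763 to 0.197. Lef1 was 3.69-fold lower in spinal cord (limma adjusted p = 1.5e-04). Axin2 was at 14.5 and 16.7 against 19.3 and 20.7 RPKM (−0.34, limma adjusted p = 0.0503), and it was called lower under 6 of the alternative settings.

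Of the 59 other pathway genes tested, 17 were called higher and 15 lower in spinal cord, with a median log2 difference of 0.14. These shares lie near the 21.8% and 23.9% of all tested genes. Frzb, a secreted antagonist of the SFRP kind, measured 11.9 and 12.2 RPKM against 3.1 and 3.6 RPKM in forebrain. The receptor Ror2 and the planar polarity gene Celsr1 were lower by 1.04 and 1.46 on the log2 scale (limma adjusted p = 2.5e-04 and 1.4e-04). Ctnnb1 was lower, at 238.2 and 248.5 against 416.7 and 432.8 RPKM. Tcf7l2 was at 2.6 and 2.7 RPKM against 79.2 and 47.2 RPKM (−4.09, limma adjusted p = 4.6e-04).

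Set side by side, the comparisons split the WNT genes into several patterns. They share no library, although the same fit gave both their spread. The genes called higher in both EED-cKO forebrain and wt spinal cord were Wnt4, Wnt6, Wnt11, Fzd10 and Sfrp4, and those called lower in both were Wnt7a, Wnt7b, Fzd2 and Fzd8. In contrast, 7 genes, Wnt2b, Wnt8b, Fzd1, Fzd5, Dkk2, Dkk3 and Rspo1, were called higher in EED-cKO and lower in spinal cord, and Sfrp5 was called lower in EED-cKO and higher in spinal cord. Another 6, Wnt3, Wnt5a, Wnt9a, Fzd4, Fzd6 and Axin2, were called higher in EED-cKO and not called in spinal cord. A further 8, including Sfrp1, Rspo2, Rspo3 and Lef1, were called lower in spinal cord and not called in EED-cKO. Wnt1 was called higher in spinal cord and not called in EED-cKO. Fzd3, Fzd7, Sfrp2 and Lrp6 were called in neither. The calls of Wnt11, Sfrp4 and Dkk3 in spinal cord ended when certain single libraries were left out. Those of Fzd2, Fzd6, Sfrp5 and Rspo1 in EED-cKO did so too, so these placements are less certain. No test of the overlap was made. The share of all tested genes in each pattern was not computed, so these counts have no background to be read against.

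**Figure D4:**
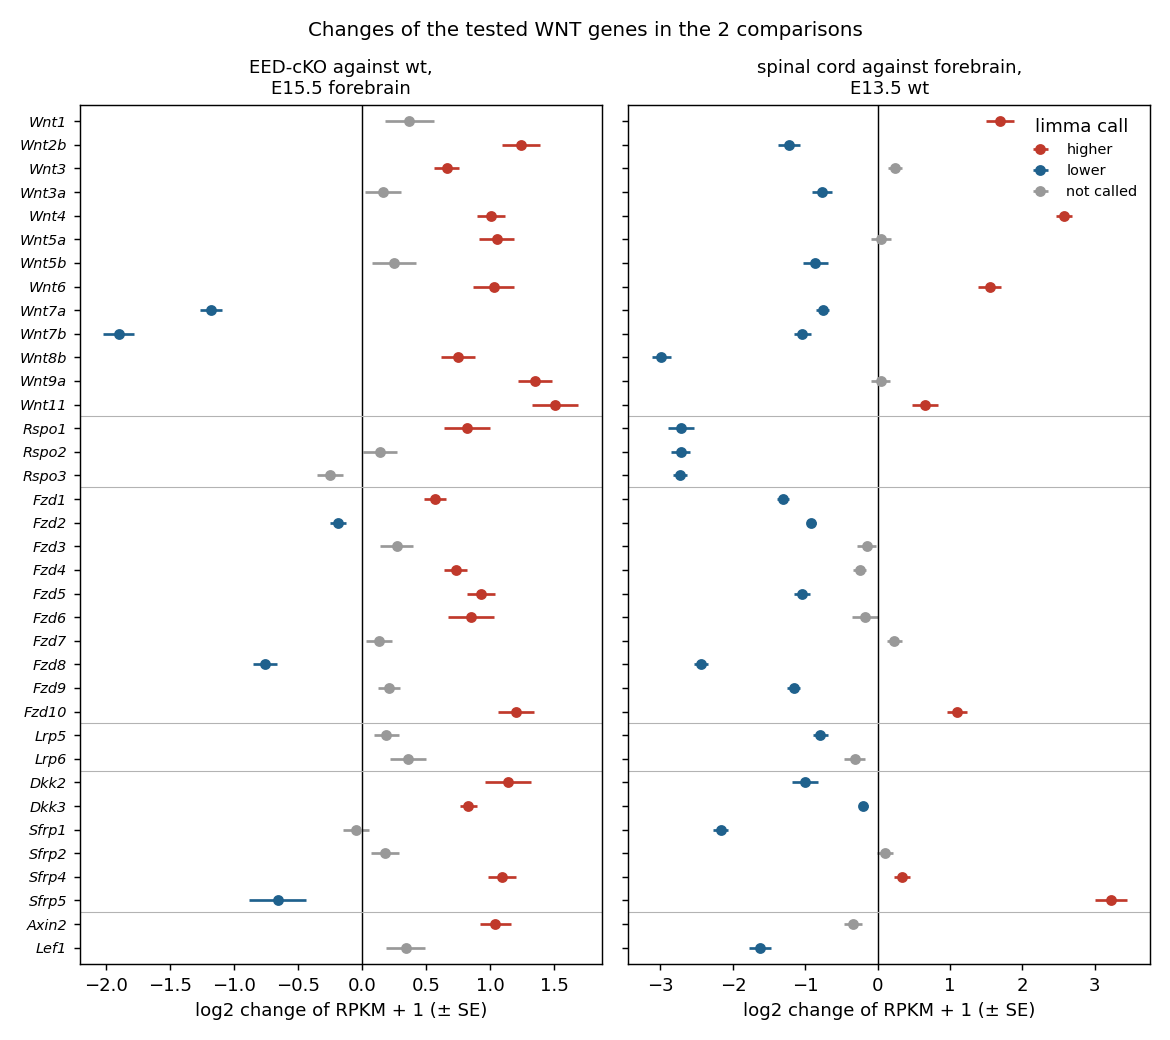
Log2 difference of each of the 36 tested WNT genes in EED-cKO against wt forebrain at E15.5 and in wt spinal cord against forebrain at E13.5, on the horizontal axes of the left and right panels, with bars for the standard error from limma and colours for the call. Wnt4, Wnt6, Wnt11 and Fzd10 are above 0 in both, Wnt7a, Wnt7b and Fzd8 are below 0 in both, and Rspo2, Rspo3 and Sfrp1 differ by region with little difference in EED-cKO.

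Several WNT ligands lie next to each other in the mouse genome with no protein-coding gene between (RefSeq, GRCm38.p6), and their levels are set side by side here. On chromosome 11, Wnt3a and Wnt9a are 16.1 kb apart, and Wnt9a rose in EED-cKO while Wnt3a was not called. On chromosome 1, Wnt6 and Wnt10a are 6.7 kb apart, and Wnt6 rose to 9.8 and 8.7 RPKM while Wnt10a stayed at or under 0.3 RPKM. Wnt3 and Wnt9b overlap at their ends on chromosome 11 without shared exons, and Wnt3 rose while Wnt9b was at 0.3 and 0.6 RPKM. On chromosome 15, Wnt1 and Wnt10b are 11.7 kb apart, and neither exceeded 1.1 RPKM in EED-cKO. Exons shared with another gene, from which unstranded reads cannot be separated, were annotated for 9 of the 43 genes. The largest shares were 17.8% of the exon sequence of Fzd5, 16.1% of Sfrp2, 13.7% of Lef1 and 13.1% of Rspo3. The others were 8.8% of Wnt11, 6.61% of Wnt7b, 4.58% of Wnt5a, 3.8% of Axin2 and 3.15% of Fzd6.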

How the data were processed

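Bulk RNA-seq was measured in 8 mouse libraries, 2 in each of 4 groups. Per the labels' protocols, RNA was extracted with an RNeasy kit and libraries were made with NEBNext Ultra and sequenced on a HiSeq 2500 as unstranded single reads of 50 bases. The deposited table holds RPKM values that the authors computed, in multiples of 0.1, for 36333 rows, 16 of them repeated symbols. The submitters' processing notes name mm9 and GRCm38 without a role, and the aligner and counter are not given in the sources used here. The E15.5 columns were set back into name order, as the report describes.

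log2(RPKM + 1) was fitted for all 8 libraries in limma 3.58.1, 1 mean for each of 4 groups, which leaves 4 residual degrees of freedom (R 4.3.3, empirical Bayes with a trend), on genes of at least 1 RPKM in 2 libraries. The procedure was tested on simulated data. Tables were made with Python 3.11.15, numpy 2.4.6 and pandas 2.3.3. The WNT genes and all gene lists were chosen with earlier results of these data known. By rule, every WNT gene is accounted for, and up to 3 called genes, largest first, of each further pathway role (with a higher group averaging 2 RPKM or more) are named; Myc, and Tcf7l2 in EED-cKO, were added after their values were seen. Alternatives were another pseudocount, filter, scaling, row order or set of libraries, and the replicate number as a block.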

Additional observations from a re-analysis of the deposited data

How the results depend on the processing

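In EED-cKO forebrain, 15 of the 18 genes called higher and 3 of the 5 called lower (Wnt7a, Wnt7b and Fzd8) kept their call in every setting that tested them, the deposited row order aside; in spinal cord 5 of 7 and 18 of 19 did. Leaving out 1 library gave 16 to 21 called higher and 3 to 5 lower in EED-cKO and 4922 to 9606 genes in all; in spinal cord it gave 5 to 8, 18 to 22 and 5205 to 9320. With only the 4 libraries compared, 3 WNT genes were called lower in EED-cKO and 4777 genes in all. With only genes of the same row in both orders, EED-cKO gave 6 WNT genes higher, 1 lower and 4929 genes in all, and spinal cord gave 3, 9 and 4792; fewer genes enter that fit. With a replicate block, 3 WNT genes were called lower in EED-cKO, as Fzd2 and Sfrp5 lost their calls (adjusted p = 0.0625 and 0.0563), and 7608 genes in all. In spinal cord the replicate block ended the calls of Dkk3 and Sfrp4 (0.0626 and 0.0604). Deviations of libraries with the same number correlated at 0.21 between the E13.5 groups and −0.12 between the E15.5 groups. The labels do not say whether a number marks shared animals, so a pairing of the libraries is unknown. Under the deposited row order the sign turned in EED-cKO for Wnt7a (1.01), Wnt7b (1.05), Wnt9a (−1.18), Fzd2 (1.20), Fzd3 (−0.19), Fzd8 (0.13), Fzd9 (−0.76) and Lrp6 (−0.19). Quantile normalization moved the median of all genes in EED-cKO to −0.05 and the share of calls that were higher to 45.1%, with 16 WNT genes higher and 6 lower; it lowered Wnt3 to 0.37, Fzd4 to 0.34 and Fzd5 to 0.58. Signs of genes without a call turned under median ratio scaling for Fzd7 (−0.01) and under quantile normalization for Wnt1 (−0.02), Wnt3a (−0.17), Wnt5b (−0.13), Fzd7 (−0.19), Rspo2 (−0.21) and Lrp5 (−0.03) in EED-cKO, and for Wnt9a (−0.08) in spinal cord. With 1 library left out they turned in EED-cKO for Sfrp1 (range −0.21 to 0.11) and Wnt3a (−0.05 to 0.37), and in spinal cord for Wnt9a (−0.09 to 0.18), Fzd6 (−0.44 to 0.10), Sfrp2 (−0.06 to 0.27) and Wnt5a (−0.07 to 0.17). Calls were also gained. With only the 4 libraries compared, Wnt1 was called in EED-cKO (0.37, limma adjusted p = 0.0261). In spinal cord, under 1 or more settings, Fzd4, Fzd6, Lrp6 and Axin2 were called lower and Wnt3 higher. For Fzd6 this held only without E13.5 forebrain replicate 1 (−0.44). With the order restored and no single library left out, limma adjusted p of the other gains ran from 0.0121 to 0.0494. Lrp6 was also called under the deposited row order. A pseudocount of 0.1 enlarged differences of weak genes by over 1.5 times, in spinal cord to 3.70 for Wnt1, −1.84 for Wnt2b, −1.23 for Wnt3a, −4.56 for Wnt8b, 1.34 for Wnt11, −2.40 for Fzd5, 0.52 for Sfrp4 and 4.96 for Sfrp5, and in EED-cKO to −1.07 for Sfrp5. The cause of these shifts was not tested. With no counts in the file, counting error could not be given, and values near 0.1 RPKM rest on the rounding step.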
